A study of Mus musculus with 2 samples.

Results

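Genes of the Pax, Lhx, Nkx, Dlx, Irx and sine oculis (Six4 and relatives) families encode homeobox transcription factors that pattern tissues, and their messenger RNA was measured here in uninduced mouse embryonic stem cells (mESCs). The genes were taken by name from the count table, as rows named by 1 of these prefixes and a number (for Nkx, a pair of numbers). Described here are 46 of the 22556 genes of the table, with 5 sine oculis genes, 6 Irx, 8 Lhx, 8 Pax, 13 Nkx and 6 Dlx genes. The naming rule uses no measured level.

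The cells were of the iXist-ChrX-Dom line, which is female (XX) and descends from a cross between Dom/129S and Cast mice, and in which the promoter of Xist, the RNA that silences the X chromosome, was exchanged on the Dom/129S allele for TetOn, a promoter switched on by doxycycline. No doxycycline was given, so the cells were at 0 h and untreated, in serum medium with LIF, and they came from 1 engineered clone. Mouse fibroblasts used as feeders were removed by pre-plating. There is 1 group of 2 replicates and so no comparison between treatments, and because nothing states that the replicates came from separate cultures, the spread between them may be technical.

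The libraries held 23716499 and 20275749 counts, each count being 1 sequenced RNA fragment assigned to a gene, so that a gene without a count could still have had a true level of as many as 3 counts, that is 0.126 and 0.148 CPM (counts per 1000000). All 9 mESC markers were at a mean of at least 1 transcript per 1000000 (TPM, counts per kb of gene scaled to 1000000 a library), from Utf1 at 3.82 ± 1.42 TPM (SD, n = 2; 9 and 4 counts) to Tdgf1 at 3501 ± 165, and 7 of the 9 were lower in replicate 2 by the replicate test described below, such as Dppa4 with 2190 and 677 counts. Although the labels give the cell type as mESC to NPC (neural precursor cell), the neural markers Sox1, Neurog1 and Olig2 had 0 counts in both libraries, and 3 of 8 neural markers reached 1 TPM, Nes at 12.9 ± 0.125 (181 and 136 counts), Tubb3 at 2.50 ± 1.39 and Map2 at 2.42 ± 0.633. Of 8 fibroblast markers 1 did, Thy1, with 32 and 2 counts, and the 8 summed to 4.73 TPM in replicate 1 and 0.888 in replicate 2. Of 5 mesoderm markers 2 reached 1 TPM and of 6 primitive endoderm markers 1 did. The part of such cells in the levels below was not tested, and in bulk RNA a few cells with much of a transcript and many cells with little cannot be told apart.

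Homeobox factors bind DNA through the homeodomain, a fold shared by the products of all 6 families except a few Pax proteins, to which Pax adds a paired domain, Lhx a pair of LIM domains that hold cofactors, and the sine oculis proteins a domain that binds Eya phosphatases. Each gene is known for the tissues it helps to specify, such as eye, ear, kidney and muscle for the sine oculis genes, heart and neural plate for Irx, and forebrain and jaw for Dlx. In pluripotent cells many genes of this kind are textbook examples of silent developmental genes whose promoters lie in CpG islands and carry Polycomb marks.

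Promoter sequence was available from RefSeq for 34 of the 46 genes, as a window of 300 bases from 250 before to 50 after a transcription start on GRCm38.p6. The stretches below are shown because they belong to the most abundant members with a window, Six4 and Irx2, and to a pair without any count, Nkx1-1 and Nkx2-3. Each precedes the outermost RefSeq start, is written 5′ to 3′ on the strand of the gene, and has its CpG dinucleotides in capitals. Six4 lies at chr12:73113457-73113675 on the minus strand, where bases in an annotated exon next to the start were left off, Irx2 at chr13:72628570-72628819 on the plus strand, Nkx1-1 at chr5:33434091-33434340 on the minus strand and Nkx2-3 at chr19:43612075-43612324 on the plus strand.
Six4: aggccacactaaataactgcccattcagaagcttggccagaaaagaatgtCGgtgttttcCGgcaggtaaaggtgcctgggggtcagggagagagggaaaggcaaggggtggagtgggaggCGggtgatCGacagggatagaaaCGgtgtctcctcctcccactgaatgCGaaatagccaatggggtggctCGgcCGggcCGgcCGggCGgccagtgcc
Irx2: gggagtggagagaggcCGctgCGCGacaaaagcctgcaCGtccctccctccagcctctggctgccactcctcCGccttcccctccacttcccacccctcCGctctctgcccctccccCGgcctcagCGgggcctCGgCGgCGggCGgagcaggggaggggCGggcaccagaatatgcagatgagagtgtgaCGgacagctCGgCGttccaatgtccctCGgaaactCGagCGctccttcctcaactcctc
Nkx1-1: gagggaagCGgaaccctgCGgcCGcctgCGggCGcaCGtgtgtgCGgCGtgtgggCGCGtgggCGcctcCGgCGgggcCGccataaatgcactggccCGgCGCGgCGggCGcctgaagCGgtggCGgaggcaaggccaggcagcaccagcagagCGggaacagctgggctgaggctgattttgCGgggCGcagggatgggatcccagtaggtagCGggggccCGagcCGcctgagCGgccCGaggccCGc
Nkx2-3: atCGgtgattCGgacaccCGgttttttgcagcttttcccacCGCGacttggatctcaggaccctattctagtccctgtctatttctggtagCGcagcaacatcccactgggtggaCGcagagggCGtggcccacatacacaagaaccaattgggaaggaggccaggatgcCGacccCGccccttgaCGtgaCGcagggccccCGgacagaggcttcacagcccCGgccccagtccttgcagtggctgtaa
Counted over these stretches, Six4 held 11 CpG in 219 bases, and Irx2 held 19, Nkx1-1 30 and Nkx2-3 14 in 250 bases each.

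Most members were at or near 0, and 1 gene, Six4, held most of their counts. Of the 46 members, 6 reached a mean of 1 TPM, 24 were counted but stayed below it, and 16 had no count in either replicate. The share at 1 TPM or more was 13.0% of the members against 52.7% of all genes, and the share without counts was 34.8% against 21.1%. Among other developmental factors, 9 of 39 Hox genes (23.1%) and 21 of 44 forkhead genes (47.7%) reached 1 TPM. The median was 0.0502 TPM over the members, 0.191 over Hox, 0.791 over forkhead and 1.35 over all genes. These are descriptions of levels, with no test. The deposited gene length includes introns. With an exonic length 4 of 46 members (8.70%), 3 of 39 Hox genes (7.69%) and 55.3% of all genes reached 1 TPM. The order of the members and Hox in this share thus depended on the length used, and rested on few genes. Their medians kept their order with exonic length, at 0.0339 TPM over the members and 0.0795 over Hox.

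**Figure D1:**
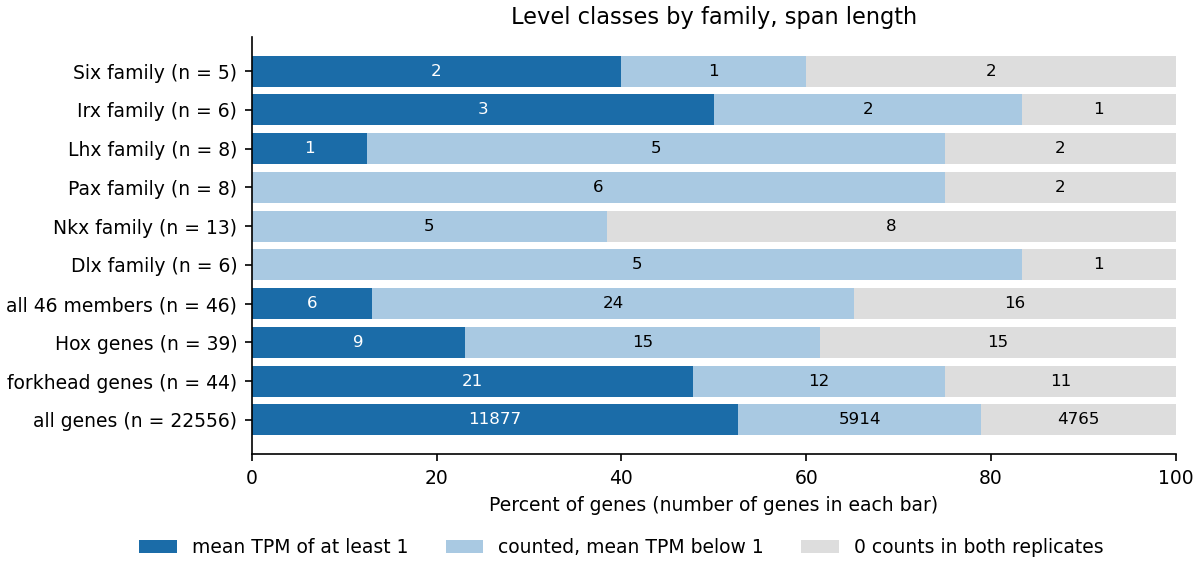
Percent of genes (x axis) at 1 TPM or more on average, with counts but a mean below 1, and with 0 counts in both replicates, for each family, for all 46 members, and for Hox, forkhead and all genes; the numbers in the bars are genes. The dark bars are longest for the Irx and sine oculis genes among the families, with 3 of 6 and 2 of 5 genes described. The Pax, Nkx and Dlx genes described have none, and 8 of 13 Nkx genes described have no count.

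Together the members took 2249 and 2287 counts in the replicates, equal to 0.00948% (95% Wilson interval 0.00910 to 0.00988) and 0.0113% (0.0108 to 0.0118) of the libraries. Six4 alone held 90.0% and 91.8% of these counts, and Six4 with Irx2 held 92.8% and 95.1%. The remaining members shared 162 and 113 counts. Intervals and limits given here cover counting error only, and take each fragment as a separate molecule. PCR copies of a fragment cannot be told from separate molecules without molecular identifiers, and any such copies would make the intervals too narrow.

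**Figure D2:**
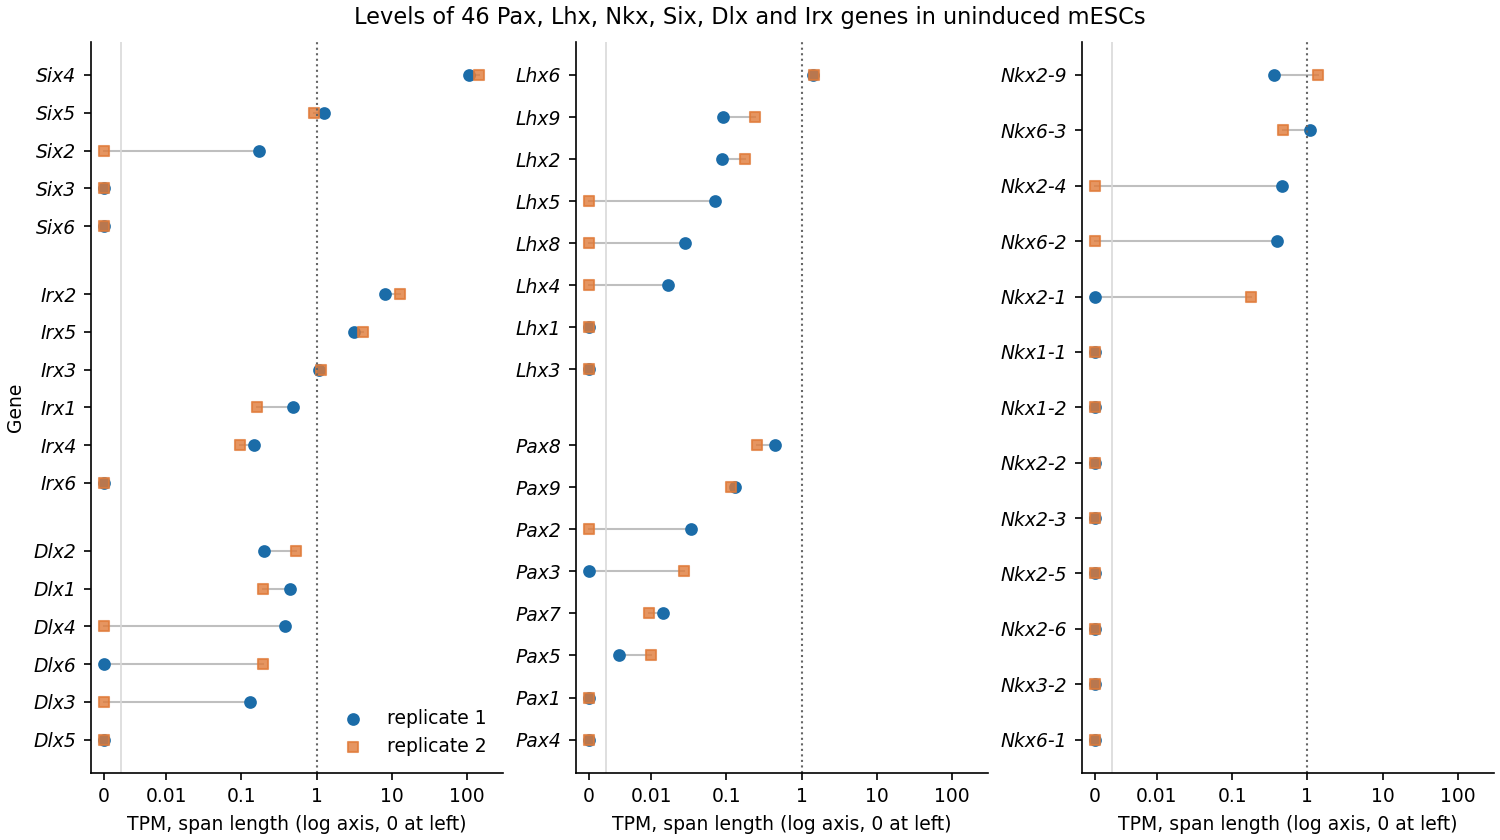
TPM with span length (x axis, log scale, with 0 drawn at the left) of each of the 46 members in replicate 1 (circles) and replicate 2 (squares), grouped by family; the dotted line is 1 TPM. Six4 lies at 105 and 143 TPM and Irx2 at 8.14 and 12.7, and most other genes lie left of the dotted line or at 0.

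Within the sine oculis family, Six4, known from muscle and kidney precursors, was the most abundant of the genes described. It was counted 2024 and 2099 times, or 105 and 143 TPM (124 ± 26.9, SD, n = 2), and ranked 1381 among all genes of the table. Both replicates of Six4 lay above both of every other member described. With exonic length it stood at 24.7 and 31.8 TPM (28.3 ± 5.06), again the highest. Six5, a lens and muscle factor beside the myotonic dystrophy kinase gene Dmpk, had 7 and 4 counts (1.24 and 0.931 TPM). With exonic length its mean was 0.264 TPM, below the threshold of 1 TPM. Six2, known from nephron progenitors, had 1 and 0 counts, and Six3 and Six6, factors of the forebrain and retina, had none.

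The Irx family, factors of neural plate and heart, had its highest level at Irx2, with 63 and 75 counts or 8.14 and 12.7 TPM (10.4 ± 3.24). Irx5 followed with 17 and 17 counts, or 3.13 and 4.11 TPM (3.62 ± 0.692), and Irx3 with 5 and 4 counts, or 1.07 and 1.13 TPM. With exonic length Irx5 and Irx3 dropped below the threshold, to 0.807 and 0.239 TPM, and Irx2 stayed above it at 3.94. The remaining Irx genes were Irx1 with 4 and 1 counts, Irx4, a factor of the heart ventricle, with 2 and 1, and Irx6 with none.

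In the Lhx, Pax, Nkx and Dlx families, 1 gene described here reached 1 TPM. Lhx6, known from interneurons of the ventral forebrain, was counted 49 and 39 times, or 1.41 and 1.47 TPM (1.44 ± 0.0447). Lhx6 was the sole one of the 8 Lhx genes at this level, and its replicates lay within 0.1 TPM of each other. Highest of the Pax genes described was Pax8, a factor of thyroid and kidney, with 36 and 16 counts but 0.441 and 0.257 TPM. Its span of 55050 bases is mostly intron, and with the exonic length of 2560 bases it stood at 1.86 and 1.03 TPM, above the threshold. Dlx2, a forebrain factor and the highest Dlx gene, had 1 and 2 counts, or 0.201 and 0.529 TPM.

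The order of the 4 highest members described, Six4, Irx2, Irx5 and Lhx6, had no overlap of replicates between neighbours. Exact 95% Poisson intervals, which give counting error, were wider. That of Irx5 in replicate 1 (1.82 to 5.01 TPM) met those of Lhx6 in both replicates (1.04 to 1.86 and 1.05 to 2.01), and that of Irx5 in replicate 2 (2.39 to 6.58) met that of Irx2 in replicate 1 (6.25 to 10.4). Irx3 and Six5 overlapped each other. The threshold of 1 TPM fell among genes that could not be separated. Nkx2-9, with span length the highest Nkx gene described and just outside at a mean of 0.881, read 0.357 and 1.41 TPM from 1 and 3 counts. Nkx6-3, a stomach factor, read 1.07 and 0.468 TPM from 9 and 3 counts. With exonic length Nkx6-3 was the higher on average, at 0.377 against 0.248 TPM. With CPM in place of TPM, Six4, Irx2, Lhx6 and Pax8 were at 1 or more, the 4 genes that also passed with exonic length.

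The 24 members counted below 1 TPM rested on few fragments, with 21 of them under 10 counts in both libraries together and 12 counted in 1 library alone. They were Six2; Irx1 and Irx4; Lhx2, Lhx4, Lhx5, Lhx8 and Lhx9; Pax2, Pax3, Pax5, Pax7, Pax8 and Pax9; Nkx2-1, Nkx2-4, Nkx2-9, Nkx6-2 and Nkx6-3; and Dlx1, Dlx2, Dlx3, Dlx4 and Dlx6. Among them Lhx2, an eye field and cortex factor, had 4 and 6 counts, Lhx9, a gonad factor, had 3 and 6, and Pax3 and Pax7, which mark dorsal neural tube and muscle progenitors, had 0 and 3, and 2 and 1. Of these 24, 2 were above the 3 counts that a 0 allows in both libraries, Lhx2 and Pax8, and the others had 3 or fewer in at least 1 library.

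No fragment was found for 16 members. They were Six3, Six6, Irx6, Lhx1 and Lhx3; Pax1 and Pax4; Nkx1-1, Nkx1-2, Nkx2-2, Nkx2-3, Nkx2-5, Nkx2-6, Nkx3-2 and Nkx6-1; and Dlx5. Regulators that define a lineage are among them, such as Nkx2-5 for heart, Nkx2-2 and Nkx6-1 for ventral neural tube and pancreatic islet, Pax4 for islet, and Lhx3 for pituitary and motor neurons. For each, the 3 counts that a 0 allows correspond to between 0.201 and 0.738 TPM in replicate 1 and between 0.264 and 0.969 in replicate 2, so that a gene at up to these levels could still give no count.

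Of 9 pairs of members described that lie next to each other within 250 kb, 8 had both genes below 1 TPM, and in the remaining pair, Six6 and Six4, the levels differed. On chromosome 12 (mm10), Six4 (73100258 to 73113245, minus strand) was the highest of the genes described, and Six6 (72939944 to 72944899, plus strand), 155 kb away, had no count. Irx2 on chromosome 13 (72628977 to 72634194) stood at 10.4 TPM between Irx1 at 0.326 and Irx4 at 0.122 TPM, at distances of 665 and 626 kb. The other Irx group, on chromosome 8, ran from Irx3 at 1.10 TPM over Irx5 (92357795 to 92361456) at 3.62 to Irx6 at 0. No replicate ranges overlapped between Six4 and Six6, nor between Irx2 and either of Irx1 and Irx4, nor among Irx3, Irx5 and Irx6. The Poisson intervals did overlap on chromosome 8, where that of Irx3 met both others in each replicate. In replicate 1 that of Irx3 (0.348 to 2.50 TPM) met that of Irx5 (from 1.82), and in replicate 2 that of Irx3 (from 0.307) met that of Irx6 (up to 0.575). The paired Dlx genes, Dlx1 with Dlx2, Dlx3 with Dlx4 and Dlx5 with Dlx6, were 9.43 to 15.2 kb apart and all below 1 TPM.

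**Figure D3:**
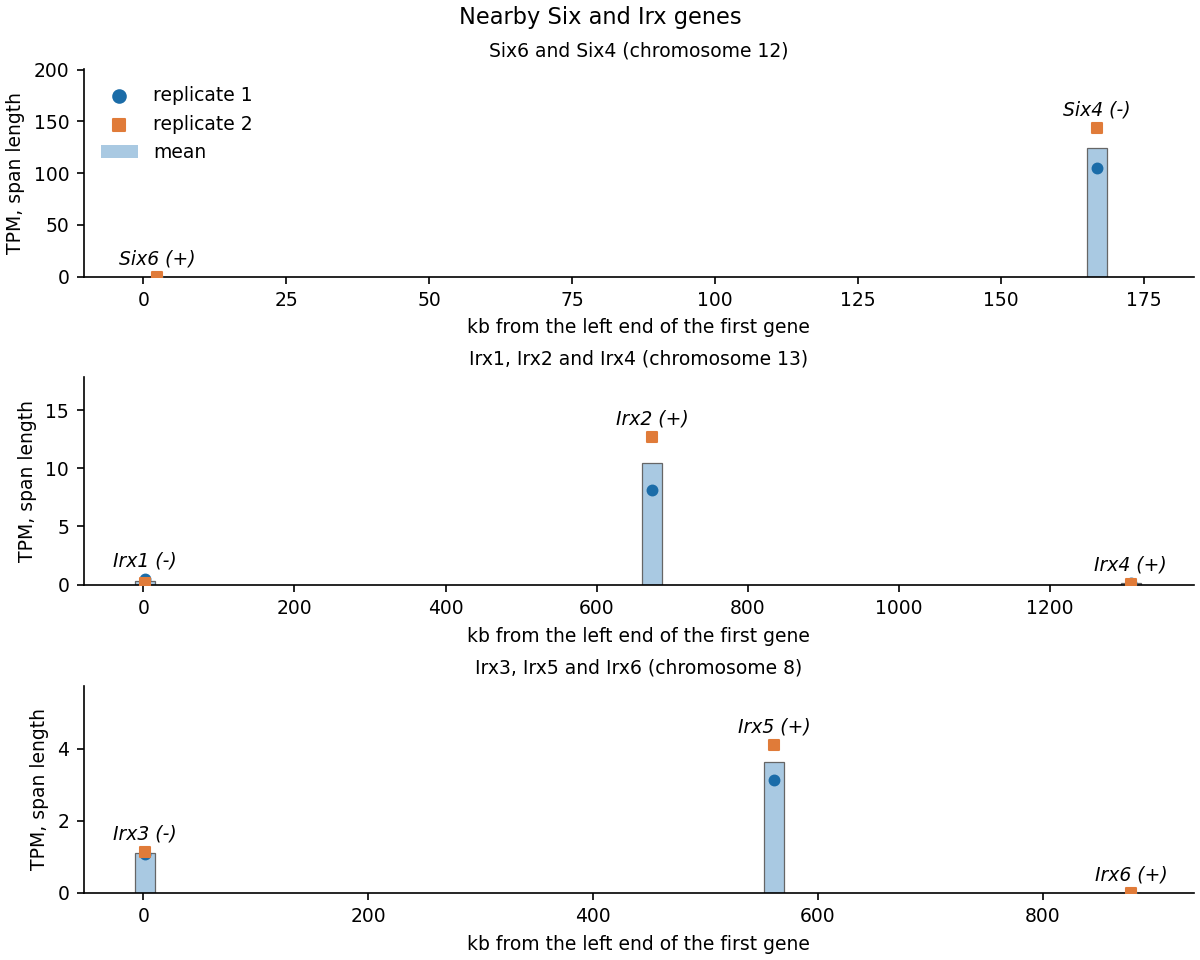
TPM with span length (y axis, linear from 0, own scale in each panel) of nearby genes of the sine oculis and Irx families against distance in kb from the left end of the first gene; bars are means, circles replicate 1, squares replicate 2, and signs in brackets the strand. In each panel 1 gene stands above the others shown, Six4 at 124, Irx2 at 10.4 and Irx5 at 3.62 TPM.

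No gene on the same strand overlapped any member. Genes on the opposite strand overlapped 8 members, and the counting used strand. The 6 antisense transcripts named after members (Lhx1os, Six3os1, Dlx1as, Nkx2-2os, Dlx6os1 and Dlx6as2) held 1 count in all, in Nkx2-2os.

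Of the members, 8 had at least 10 counts in total and could be tested between the replicates with a two-sided exact binomial test against the ratio of library totals, Benjamini-Hochberg adjusted over 14536 genes. Six4 was higher in replicate 2 by a log2 ratio of 0.28 (95% interval 0.19 to 0.37, exact binomial adjusted p = 2.4e-09), or 1.21 times. This difference exceeded counting error and compares these 2 libraries only. Passing this test was common, at 60.8% of all genes tested, with 15.1% higher and 45.7% lower in replicate 2, and 1 of 8 members passed.

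The other 7 did not pass. Irx2 had a log2 ratio of 0.48 (-0.02 to 0.98, exact binomial adjusted p = 0.0922), Pax8 one of -0.94 (-1.89 to -0.06, exact binomial adjusted p = 0.058), and the interval of each remaining gene included 0. Their widths, from -0.75 to 0.53 for Lhx6 up to -3.88 to 0.64 for Nkx6-3, show how little their counts could resolve. Across genes, the ratio between the libraries moved with GC content. A curve over 9255 autosomal genes gave an expected log2 ratio of -0.09 at the transcript GC content of Six4 (44.8%) and -0.76 at that of Irx2 (56.8%). Against this curve Six4 and Irx2 were higher in replicate 2 by 0.37 and 1.23 on the log2 scale, and Irx2 then passed (exact binomial adjusted p = 3.5e-06). It also passed the exact binomial test with the TMM factors of edgeR (adjusted p = 0.0067) and with DESeq2 size factors (adjusted p = 0.0037). These factors moved the log2 ratio of every gene by 0.26 and 0.31. With them the share of called genes that were higher in replicate 2 went from 24.9% to 49.9% and 54.8%, and the sign of Lhx6 (-0.10 with library totals) turned. The sum over fibroblast markers went from 4.73 to 0.888 TPM, of which Thy1 made up 4.15 and 0.341 TPM, while Col1a1 had 4 and 5 counts. Of 3 fibroblast markers tested 1, Thy1, was lower in replicate 2 (33.3%). With library totals 7 of 9 mESC markers and all 3 mesoderm markers tested were lower in replicate 2, against 45.7% of all genes. The mESC marker Zfp42 passed as higher, at a log2 ratio of 0.047. Of 3 neural markers tested 1 was higher and 1 lower, and of 4 primitive endoderm markers tested none passed. The signs of Nanog and Klf4, at log2 ratios of -0.18 and -0.15, turn with TMM and DESeq2 factors. The part of any of these in the ratio of Six4 was not tested.

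**Figure D4:**
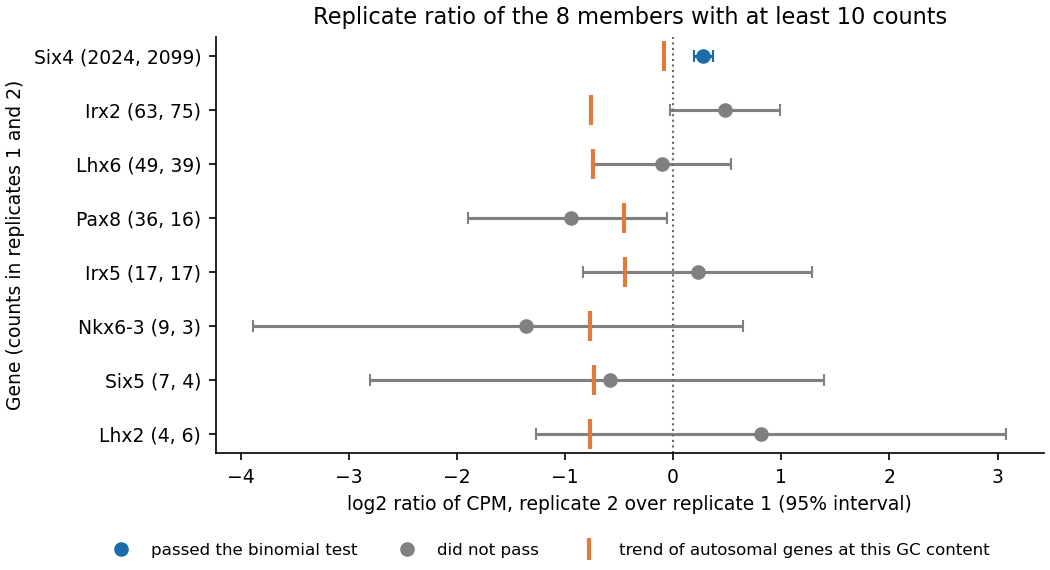
Log2 ratio of CPM, replicate 2 over replicate 1 (x axis), of the 8 members with at least 10 counts in total, with 95% Clopper-Pearson intervals; blue points passed the exact binomial test, grey ones did not, and orange ticks give the ratio expected from the curve over autosomal genes at the GC content of each gene. Six4 at 0.28 lies right of 0 and of its tick.

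Genes of partner proteins and of related homeodomain proteins were also looked at. Of 33 such genes, 17 (51.5%) reached 1 TPM, near the 52.7% of all genes with span length, and 1, Lmo3, had no count. With span length the highest were Pbx2, a homeodomain cofactor, at 96.8 ± 11.3 TPM, Ldb1, which bridges LIM proteins, at 79.0 ± 17.3, the Groucho corepressors Tle4 and Tle1 at 24.7 ± 5.11 and 19.3 ± 2.73, and Paxip1, which binds Pax2, at 18.2 ± 1.59. Of the Eya and Dach genes, whose products join sine oculis proteins, 3 of 6 reached 1 TPM: Eya3 at 10.2 ± 0.599, Eya1 at 1.78 ± 0.252 and Dach2 at 1.26 ± 0.460 TPM. With span length Eya3 was below Six4 in both replicates, while with exonic length its mean, 32.1 ± 3.11 TPM, was above that of Six4, 28.3 ± 5.06. Ldb1 was above every Lhx gene with either length. With exonic length 25 of the 33 reached 1 TPM, against 55.3% of all genes, and 24 reached 1 CPM, against 53.3%, so that the nearness to all genes held with span length alone. The order differed too with exonic length, with Tle4 at 155 ± 26.2, Pbx3 at 109 ± 19.9 and Tle1 at 65.9 ± 6.82 first, and Pbx2 at 27.3 ± 2.15. Between the replicates 29 were tested by the same exact binomial test, with 4 higher and 8 lower in replicate 2, that is 13.8% and 27.6% against 15.1% and 45.7% of all genes tested.

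With CpG-rich meaning a GC content of at least 50% and an observed over expected CpG of at least 0.6, 22 of 34 member windows (64.7%) were so, against 47.2% of 16595 windows in all. Among members below 1 TPM the share was 19 of 29 (65.5%), where all genes below 1 TPM gave 18.7% and all genes at 1 TPM or more gave 71.5%. Members at 1 TPM or more gave 3 of 5. The ratio ran from 0.241 at Lhx8 to 1.18 at Nkx6-1, a gene without a count, and the windows of Six4 and Irx2 had 0.713 and 0.723 while Nkx1-1 and Nkx2-3 had 0.880 and 0.559. These windows were taken at the RefSeq start nearest to the start in the count table, which for Six4 is not the outermost. No test was made of these shares, and genes of 1 family share ancestry.

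**Figure D5:**
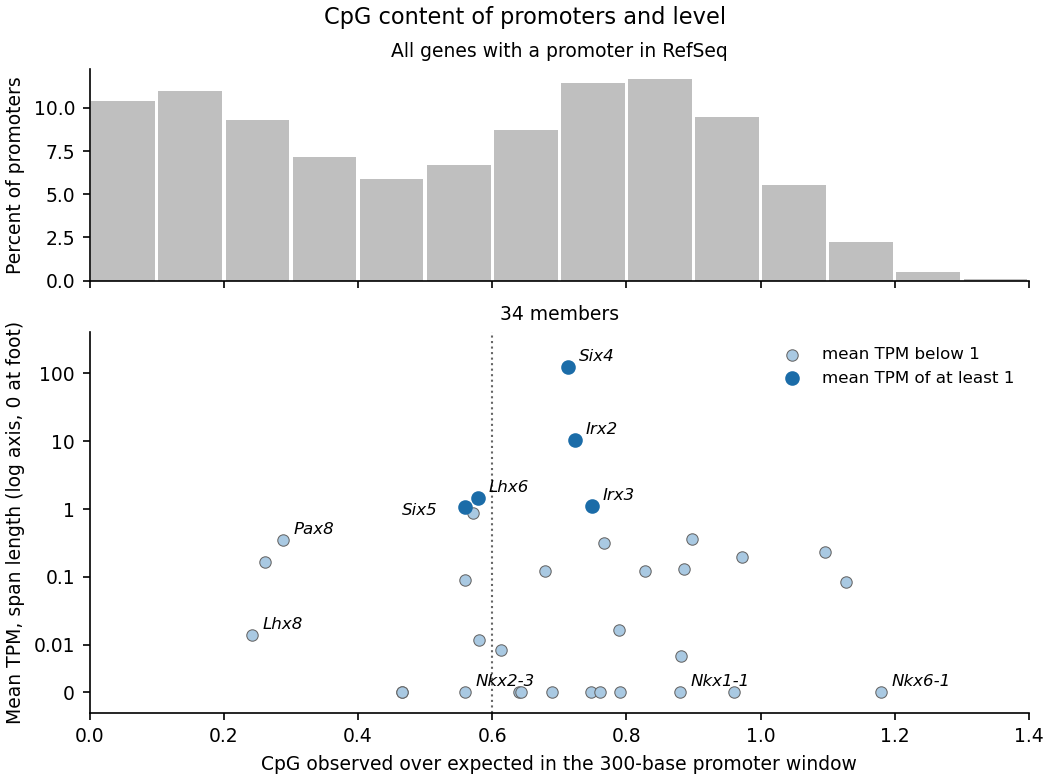
Observed over expected CpG of 300-base RefSeq promoter windows (x axis) for all genes (upper panel, percent of windows per bin of 0.1) and for 34 members against mean TPM (lower panel, log y axis with 0 at the foot); the dotted line is 0.6. Members without counts extend to 1.18 (Nkx6-1), and Six4 and Irx2 lie at 0.713 and 0.723.

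Short motifs were searched on both strands of the windows, and a match describes letters, not binding. The GC box core GGGCGG was in 25 of 34 member windows (73.5%, against 47.9% of all windows), CCAAT in 14 (41.2% against 38.6%), TATAAA in 1, that of Lhx3 (2.94% against 12.8%), and TAATTA, a core that homeodomains can bind, in none (against 4.59%). The windows of Six4 and Irx2 both held GGGCGG, and of the pair without counts Nkx2-3 held it and Nkx1-1 did not.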

How the data were processed

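Messenger RNA of 2 replicates of 1 group (uninduced, 0 h) was analysed. The authors deposited raw fragment counts per gene, from featureCounts, version 1.5.2 by its header line, in reverse-stranded mode over transcript spans on mm10, introns included. The submitters' processing notes also name STAR 2.4.2a and Bowtie2 2.3.2, and their use for these libraries is not given in the sources used here. Column names lack a letter that the sample descriptions carry, and the remainder of each name set its sample. TPM used the deposited span length, and 3 matching rows and 1 listed marker are not reported here and stand outside every count, median and share given for members and markers. Exonic lengths (GENCODE M21 basic, GRCm38) were matched for 21337 genes by symbol and 887 by an older symbol, including all 46 members. Replicates were compared by a two-sided exact binomial test (scipy 1.17.1) on every gene whose 2 counts summed to 10 or more, and p-values were adjusted by Benjamini-Hochberg with a threshold of 0.05, and scaling alternatives came from edgeR 4.0.16 and DESeq2 1.42.0. The GC curve was a polynomial of degree 3 fitted to autosomal genes with 50 or more counts in both libraries. Depth was 23716499 and 20275749 counts. Promoters were taken at the RefSeq start nearest the 5′ end of the gene in the table. No promoter entry was found for Dlx3, Dlx4, Dlx5, Dlx6, Irx1, Irx5, Irx6, Lhx5, Nkx2-6, Nkx6-3, Pax3 and Pax4. Values in both replicates are given for members at 1 TPM or more, the highest described of each family with span length, the most counted 5, those past the replicate test, and neighbours within 250 kb of a member at 1 TPM or more, and any others named were chosen after their values were seen. Partner genes named were the 5 highest at 1 TPM or more, and the Eya and Dach genes at that level were added after their values were seen. Members and lists were chosen with earlier results of these data known.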

Additional observations from a re-analysis of the deposited data

How the results depend on the processing

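No paired analysis was possible because all libraries belong to 1 group. Over 11 results and 38 alternatives, 15 values stayed within the replicate spread or within 1.5 times of a count and 23 did not. Among the 23 were all 12 alternatives to the level of a named member. Those set exonic length or CPM against span-length TPM, which are different scales, so they do not measure stability. Counts within 1.5 times could still change genes. With exonic length or CPM 6 members became 4, as Irx5, Irx3 and Six5 dropped out and Pax8 came in. Partners went from 17 to 25 with exonic length. At 0.1 TPM 19 members and 28 partners passed, and at 5 TPM 2 and 11. The median over members, 0.0502 TPM, was 0.0247 in CPM, which is another unit. It became 0.176 TPM over members with a count, and 0 to 0.0306 with either replicate left out, 0 being the value without replicate 1. Without Six4 the members held 0.000938% of the counts, and with either replicate left out all 46 held 0.00948 to 0.0113%. Leaving out a replicate gave 6 to 7 members and 16 to 17 partners at 1 TPM. The replicate test called 1 member, and 2 with TMM factors, with DESeq2 size factors and with the GC curve, while both other filters gave 1. Of all genes tested, 57.7%, 57.8% and 45.5% were called with those 3 settings. Without a filter on counts 48.5% of 17791 genes were called, and with at least 10 counts in each replicate 65.2% of 12674. Depth limits the 22 members with 1 to 9 counts in total and the 16 with none.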

Other observations

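Genes beside the more abundant members were counted as follows. The non-coding RNA gene Crnde, 1.68 kb from Irx5 on the opposite strand, had 611 and 537 counts where Irx5 had 17 and 17. Dmpk, which ends 0.723 kb before Six5 on the same strand, had 47 and 33 counts where Six5 had 7 and 4, or 3.18 and 2.93 TPM against 1.24 and 0.931. Mnat1, 10.5 kb from Six4 on the opposite strand, had 2804 and 2781 counts, and at 12.6 and 16.4 TPM lay below Six4 in both replicates. Gm20554, 0.413 kb from Irx2 on the opposite strand, had 5 and 1 counts against 63 and 75 for Irx2. Rbm18, 10.7 kb upstream of Lhx6 on the same strand, had 1733 and 1809 counts (56.6 and 77.6 TPM) against 49 and 39 for Lhx6, and Morn5, 2.24 kb from Lhx6 on the opposite strand, had none. Fto, which neighbours Irx3 at 130 kb, had 1784 and 1339 counts, and Irx3 5 and 4. Whether fragments that run past the annotated end of a neighbour enter the counts of a member was not tested.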
